A study of Mus musculus with 2 samples.

Results

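Isolated CTCF peaks near genes are peaks of the intestinal CTCF map that stand alone on both sides and still lie close to the start of a protein-coding gene. They were chosen by measured values: from the optimal list of peaks passing the irreproducible discovery rate (IDR) filter, on chromosomes 1 to 19, a peak was kept when its summit had no other listed summit within 100 kb on either side and a protein-coding transcription start site (TSS) within 100 kb. The rule kept 426 of 71756 autosomal peaks, or 0.594%, and the whole list holds 73465. A further 960 peaks were isolated but had no protein-coding TSS within 100 kb, and 63918 peaks near genes were not isolated.

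CTCF is a zinc-finger protein that recognises a long, asymmetric DNA motif. With the cohesin complex it anchors chromatin loops, most often between motifs that point towards each other, and it marks domain boundaries that limit contacts between enhancers and promoters. It also binds at many active promoters and inside introns, and its sites are largely shared between tissues.

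The map was made by chromatin immunoprecipitation with a CTCF antibody and sequencing (ChIP-seq) on intestines of newborn B6NCrl mice at postnatal day 0. There was 1 group with 2 replicates numbered as biological, although the labels give both the same sample of tissue, so that the spread between them may be technical. The series holds no other genotype, treatment or age. The starting material was powdered whole intestine pooled over several dissections, and the sex of the animals was not recorded. Epithelium, muscle, nerve and blood cells were therefore measured together, and a peak could come from any of them.

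The sites of the 10 strongest isolated peaks are printed first, because they show the DNA under the solitary sites with the highest signal. Each line gives the 19-base CTCF motif site in capitals with 10 bases on each side, read 5′ to 3′ on the strand of the motif from the RefSeq copy of the mouse assembly GRCm38 (mm10). Peaks are named by the protein-coding gene with the nearest TSS, which says nothing of which gene a site acts on.
Lmo3 (chr6:138477760-138477798, plus strand): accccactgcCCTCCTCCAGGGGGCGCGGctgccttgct
Lnp1 (chr16:56920432-56920470, minus strand): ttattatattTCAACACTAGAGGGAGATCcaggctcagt
Cacna2d1 (chr5:15838301-15838339, plus strand): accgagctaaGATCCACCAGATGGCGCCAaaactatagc
Adam4 (chr12:81402338-81402376, minus strand): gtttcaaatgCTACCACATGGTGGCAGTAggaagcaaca
5730522E02Rik (chr11:25862961-25862999, minus strand): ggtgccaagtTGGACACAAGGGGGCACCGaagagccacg
Pappa2 (chr1:158953724-158953762, minus strand): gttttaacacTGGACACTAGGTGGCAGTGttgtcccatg
Lrrc4c (chr2:97466295-97466333, plus strand): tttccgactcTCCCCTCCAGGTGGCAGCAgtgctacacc
Fah (chr7:84594568-84594606, plus strand): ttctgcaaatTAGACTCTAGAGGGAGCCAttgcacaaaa
Agmo (chr12:37450960-37450998, minus strand): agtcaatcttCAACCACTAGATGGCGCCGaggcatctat
Slc25a21 (chr12:56986231-56986269, minus strand): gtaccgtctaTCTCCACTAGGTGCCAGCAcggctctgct

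A second set shows sites at isolated peaks near genes of intestinal connective tissue, stem cells and development, with 1 peak of the weakest signal decile, near Pramel7. They are shown because 5 of the 6 carry the same 9 bases, CCAGAAGAG, inside the site, in sequence that reads alike at distant loci.
Smoc2 (chr17:14412643-14412681, minus strand): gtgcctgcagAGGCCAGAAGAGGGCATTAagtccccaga
Kit (chr5:75736498-75736536, minus strand): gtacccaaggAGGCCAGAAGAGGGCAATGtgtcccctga
Bmp5 (chr9:75905676-75905714, minus strand): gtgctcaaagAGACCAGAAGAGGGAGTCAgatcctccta
Sox6 (chr7:115698285-115698323, minus strand): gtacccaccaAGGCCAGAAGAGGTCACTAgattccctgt
Pramel7 (chr2:87480380-87480418, plus strand): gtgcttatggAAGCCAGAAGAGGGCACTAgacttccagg
Col3a1 (chr1:45314120-45314158, minus strand): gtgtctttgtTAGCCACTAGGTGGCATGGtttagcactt

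Another set shows the promoters of 3 isolated peaks in which no CTCF motif was called. Each line is the 120 bases upstream of the nearest protein-coding TSS, with CG dinucleotides in capitals. Lingo2 and Chrna7 followed the rule for named peaks, and Ctnna2 was chosen after its values were seen.
Lingo2 (chr4:36950490-36950609, minus strand): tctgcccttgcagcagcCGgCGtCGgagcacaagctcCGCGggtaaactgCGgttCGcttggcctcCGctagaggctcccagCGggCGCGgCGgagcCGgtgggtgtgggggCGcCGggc
Chrna7 (chr7:63212570-63212689, minus strand): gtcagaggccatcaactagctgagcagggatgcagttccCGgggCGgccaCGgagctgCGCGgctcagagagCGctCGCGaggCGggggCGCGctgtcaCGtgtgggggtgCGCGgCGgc
Ctnna2 (chr6:77979700-77979819, minus strand): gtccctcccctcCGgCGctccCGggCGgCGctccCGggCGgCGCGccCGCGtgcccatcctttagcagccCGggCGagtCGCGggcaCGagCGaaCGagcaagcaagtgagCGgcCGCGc

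The median signal of isolated peaks was close to that of other peaks near genes, and few were among the strongest. Signal here means the authors' deposited enrichment for a peak, whose normalization is not stated, and it serves only for comparing peaks of the same list. Over the 426 isolated peaks the median signal was 72.0 (95% interval of the median 63.2 to 82.6, quartiles 35.1 and 162, range 16.3 to 511). In peaks near genes that were not isolated the median was 77.9 (quartiles 34.8 and 234, range 4.48 to 756). Isolated peaks near genes were scarce at the top: 10 of 426 (2.35%, Wilson 95% interval 1.28 to 4.27) fell in the strongest decile, against 10.6% of non-isolated peaks near genes. Isolated peaks with no protein-coding TSS within 100 kb were as scarce there, with 1.67%, and had a median signal of 55.4. At the bottom isolated peaks near genes were about as common as non-isolated ones, with 38 (8.92%, interval 6.57 to 12) in the weakest decile, against 9.96%. All intervals of shares given here cover the counting of peaks only, because the lists hold no read counts and the read depth is unknown. Neighbouring peaks and genes are also not independent of each other.

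All 426 isolated peaks had a summit within 100 bases in the peak lists of both replicates, each of which holds 300000 peaks, against 97.2% of non-isolated peaks near genes. The median signal of the matched peaks was 37.1 in replicate 2 and 34.1 in replicate 1. A stricter reading kept the strongest 73465 peaks of each replicate: 367 isolated peaks (86.2%, interval 82.5 to 89.1) were in both of these shorter lists, against 83.7% of non-isolated peaks near genes. The isolated peaks thus recurred about as often as their crowded counterparts. Both kinds come from a list derived from these same replicates and filtered by IDR. High recurrence therefore follows in part from the filter and is no independent check. The other 59 were weak, with a median signal of 21.2 and a maximum of 35.9. Of these, 43 (72.9%) held a CTCF motif, beside 72.3% of all autosomal optimal peaks at any signal. The share in non-isolated peaks left out of the shorter lists was not computed. In the conservative IDR list 381 isolated peaks (89.4%, interval 86.2 to 92.0) were found, beside 87.0% of all autosomal optimal peaks.

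**Figure D1:**
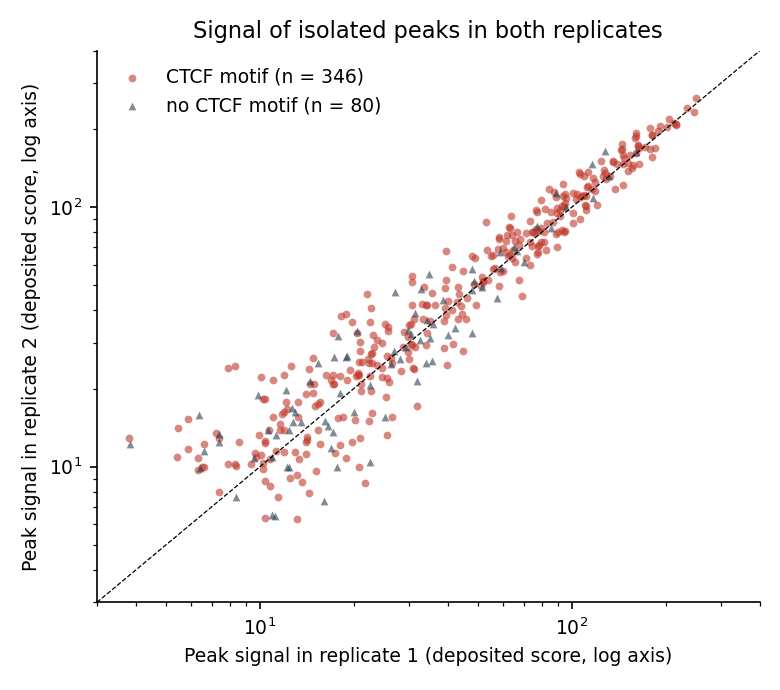
Signal of each isolated peak in replicate 2 (vertical) against replicate 1 (horizontal), both on log axes in the deposited units, with the dashed line at equal values. The 346 peaks with a CTCF motif (circles) and the 80 without (triangles) lie along the same line, and the weakest peaks scatter most around it.

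Isolation itself was less stable than the peaks, since a single additional peak ends it. Applying the same rule to the strongest 73465 peaks of replicate 1 gave 434 isolated peaks near genes, of which 328 were shared, or 77.0% of the 426 and 75.6% of the 434. In replicate 2 the rule gave 421, with 322 shared, or 75.6% of the 426 and 76.5% of the 421. The conservative list gave 434, with 317 shared, or 74.4% of the 426 and 73.0% of the 434. The surroundings of isolated peaks also held weaker summits of the pooled list that did not match the optimal list: a median of 6 within 100 kb, against 35 around non-isolated peaks near genes. For 17 isolated peaks (3.99%) there was none, and for 9 (2.11%) one of them was stronger than the isolated peak. So "isolated" means isolated among peaks that passed the IDR filter.

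At the isolation limit, the closest kept peaks were near Itga8, with a smaller gap of 100068 bases and a signal of 150, near Gjd2, with 100244 bases and 76.0, and near Cyp2b13, with 100322 bases and 45.5. The first peaks left out were near Mpp7, at 99968 bases with a signal of 109, Ppp1r9a, at 99943 bases with 539, and Pcdh15, at 99883 bases with 29.7. Ppp1r9a encodes neurabin, an actin-binding protein of neurons, and its peak is stronger than every isolated peak. At the TSS limit, the peak near Aga was kept at 99424 bases with a signal of 41.1. Of the summits at the end of a chromosome's list, which have a neighbour on 1 side only, 4 would have met the remaining conditions and were not taken.

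At the main threshold the CTCF motif was found more often in isolated peaks than in peaks with close neighbours, but not under every setting. A site was called within 100 bases of the summit when its score reached the value that 5% of windows 1 kb away from training peaks reach. By this measure 346 of 426 isolated peaks (81.2%, interval 77.2 to 84.6) had a motif, beside 72.3% of all autosomal optimal peaks and 71.7% of non-isolated peaks near genes. With the stricter value that 1% of those windows reach, 185 isolated peaks (43.4%, interval 38.8 to 48.2) had one, beside 40.6% of all optimal peaks, which lies inside that interval. Isolated peaks far from genes gave 79.6% at the first threshold. In windows 1 kb to each side of the summit the rule itself keeps other listed peaks away from isolated ones, while 9194 non-isolated peaks near genes have a summit within 1 kb. There 12 of 852 windows of isolated peaks (1.41%) reached the threshold, against 4.70% of those of non-isolated peaks near genes, and nothing is read from this difference.

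The difference was larger among weak peaks. In the weakest signal decile 28 of 38 isolated peaks (73.7%, interval 58.0 to 85.0) had a motif, against 44.3% of the other peaks of that decile. That decile spans signals of 4.48 to 22.3, but isolated peaks begin only at 16.3, so signal was not alike within it. Below the median signal 162 of 218 isolated peaks (74.3%, interval 68.1 to 79.7) had a motif, against 58.6% of the others. Above it the shares were 184 of 208 (88.5%, interval 83.4 to 92.1) and 85.9%, so at high signal the interval of isolated peaks spans the other peaks. Weighting the other peaks to the signal deciles of isolated peaks gave 81.2% in isolated peaks and 70.9% in others at like signal, a difference of 10.3 percentage points. At the stricter threshold these were 43.4% and 37.8%, a difference of 5.67 points. Both differences match signal by decile only, so signal still differed within the weakest decile. With isolated peaks limited to those within 10 kb of a TSS the difference at like signal was -1.93 points (interval -9.49 to 4.72). The other peaks were taken at any TSS distance. Of these isolated peaks 45.9% were in promoters, beside 21.8% of all autosomal optimal peaks, so the sets were unlike in position. Among peaks above the median signal, isolated among themselves, the difference was 1.47 points (interval -1.05 to 3.67).

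**Figure D2:**
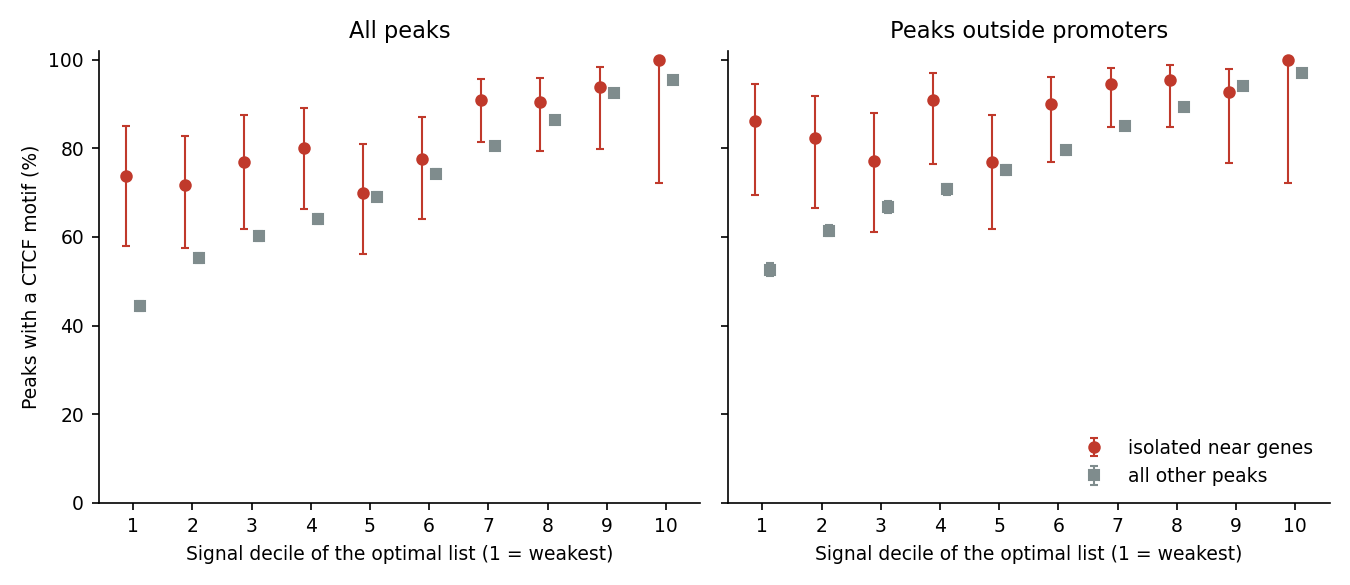
Share of peaks with a CTCF motif (percent) in each signal decile of the autosomal optimal list, for isolated peaks near genes (red circles) and all other peaks (grey squares), over all peaks (left) and outside promoters (right), with Wilson 95% intervals. In decile 1 outside promoters 25 of 29 isolated peaks (86.2%) had a motif, against 52.6% of other peaks. Signal in that decile started at 16.3 in isolated peaks and at 4.48 in other peaks. In decile 10 all 10 isolated peaks had a motif, against 97.0%.

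The difference was seen outside promoters. There 304 of 345 isolated peaks (88.1%, interval 84.3 to 91.1) had a motif, against 76.6% in other peaks at like signal. Inside promoters 42 of 81 (51.9%, interval 41.1 to 62.4) had one, against 49.5% at like signal, a difference of 2.36 points that lies within the interval. The share outside promoters did not climb evenly with the distance to the nearest summit. Among non-isolated peaks near genes it was 69.9% at gaps up to 1 kb and 78.5% at 1 to 5 kb, and it stayed at 78.4%, 78.9% and 79.2% in the bands that end at 20, 50 and 100 kb. Beyond 100 kb the isolated peaks near genes stood at 88.1%, above the upper bound of 81.4% for the band before them, but isolated peaks with no protein-coding TSS within 100 kb stood at 79.7% (735 of 922, interval 77.0 to 82.2), level with that band. Near genes the share beyond 100 kb was thus higher than in the nearer bands. Far from genes no non-isolated peaks were set beside the isolated ones, and signal was not matched in these bands. Whether isolation goes with a higher share far from genes was not tested. At the stricter threshold the share outside promoters was 48.7% in isolated peaks near genes (interval 43.5 to 54.0), which spans 45.7% in non-isolated peaks near genes and 44.6% in isolated peaks far from genes. At like signal it was 48.7% against 43.1%, a difference of 5.62 points.

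By distance to the nearest protein-coding TSS, the motif share of isolated peaks was lowest at the TSS. Within 1 kb 30 of 69 (43.5%, interval 32.4 to 55.2) had a motif, against 49.8% of non-isolated peaks at that distance. From 1 to 10 kb 80 of 90 (88.9%, interval 80.7 to 93.9) had one, against 76.9%. From 10 to 50 kb 146 of 158 (92.4%, interval 87.2 to 95.6) did, against 78.1%, and from 50 to 100 kb 90 of 109 (82.6%, interval 74.4 to 88.5), against 75.9%. In isolated peaks the strongest band was 1 to 10 kb, with a median signal of 122, against 83.9 in non-isolated ones. The highest median of non-isolated peaks was 85.3, at 10 to 50 kb. Where a motif was present its quality was like that elsewhere: the median score above threshold was 5.61 (interval of the median 5.26 to 6.20) in isolated peaks and 5.97 in non-isolated peaks near genes. The median distance between the centre of the site and the summit was 8 bases in isolated peaks, against 7.

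The 9 bases CCAGAAGAG shown in the sites of Smoc2, Kit, Bmp5, Sox6 and Pramel7 were searched on both strands after the printed sites had been read. They lay on the motif site of 26 of 346 isolated peaks with a motif (7.51%, interval 5.18 to 10.8), against 18.6% of non-isolated peaks with a motif near genes. Anywhere within 100 bases of the summit they occurred in 30 of 426 isolated peaks (7.04%), against 14.2% of non-isolated ones. In 27 of those 30 isolated peaks the best motif site lay in soft-masked sequence, that is, sequence the assembly marks as repeated. The interval of that share, 74.4 to 96.5, spans the 95.9% of non-isolated peaks near genes that held the 9 bases. Among isolated peaks far from genes that held them, 59 of 65 had a soft-masked site. Soft-masking of these sites was thus not particular to isolated peaks. Rodent B2 elements, a family of short retrotransposons, are known to carry CTCF motifs, but no repeat annotation by family was used here, so the sites are not assigned to it. Over all isolated peaks 56 summits (13.1%, interval 10.3 to 16.7) lay in soft-masked sequence, against 22.1% of non-isolated peaks near genes. Isolated peaks near genes thus had fewer soft-masked summits and fewer sites with the 9 bases. Isolated peaks far from genes were alike, with 15.8% of summits soft-masked and the 9 bases on 7.59% of motif sites. Whether reads map to repeated sequence as well as elsewhere was not tested.

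By position, isolated peaks were mostly intronic or intergenic. Introns held 177 (41.5%, interval 37.0 to 46.3), against 41.6% of non-isolated peaks near genes, and intergenic sequence held 157 (36.9%, interval 32.4 to 41.5), against 29%. Promoters, taken as 1 kb around any annotated TSS, held 81 (19%, interval 15.6 to 23.0), against 23.8% of non-isolated peaks near genes. Few peaks of either kind lay in exons outside promoters. In 3′ untranslated regions there were 5 isolated peaks (1.17%, interval 0.502 to 2.72), against 1.88% of non-isolated peaks near genes, and in coding sequence 2 (0.469%, interval 0.129 to 1.70), against 2.06%. Other exons held 4 (0.939%, interval 0.366 to 2.39), against 1.60%, and 5′ untranslated regions 0 (upper bound 0.894%), against 0.0782%. A motif was found in 157 of the 177 intronic peaks (88.7%, interval 83.2 to 92.6), against 76.3% of non-isolated intronic peaks. In intergenic sequence 137 of 157 (87.3%, interval 81.1 to 91.6) had one, against 80.6%. Intergenic isolated peaks were weaker than their counterparts, with median signals of 68.6 (interval of the median 55.2 to 81.7) and 106. Intronic ones were not, with 89.0 (interval of the median 64.0 to 121) against 71.9, and promoter ones had 63.2 against 64.9.

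**Figure D3:**
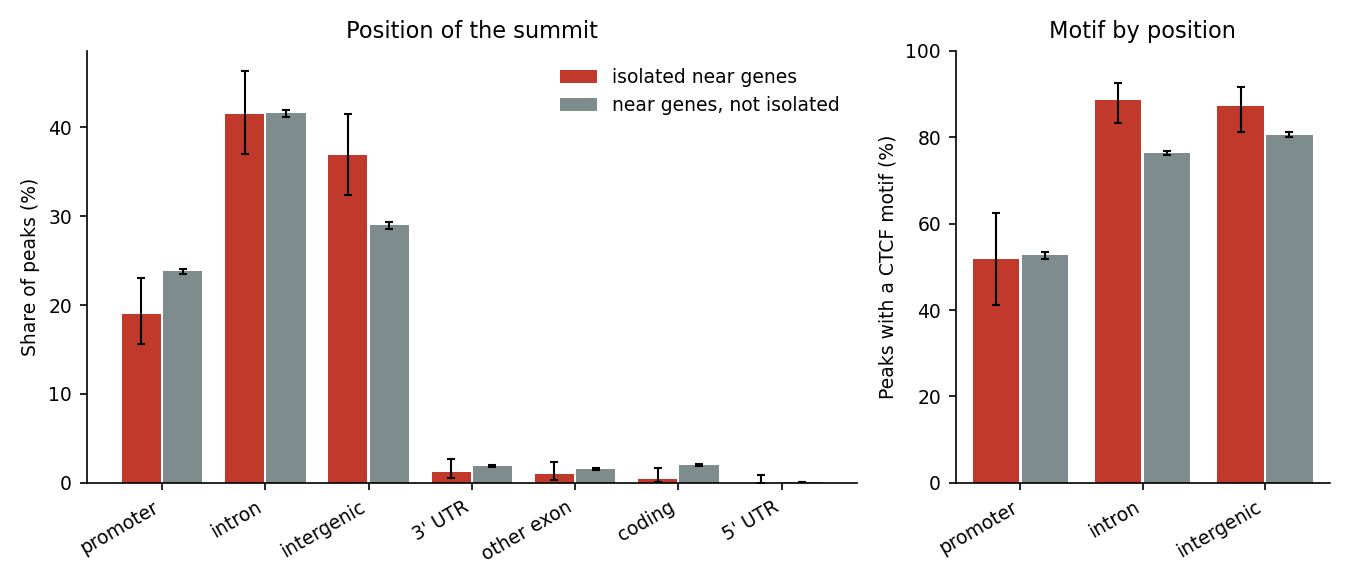
Left, share of peaks (percent) by position of the summit, for isolated peaks near genes (red) and peaks near genes that were not isolated (grey). Right, share with a CTCF motif in the main position classes, with Wilson 95% intervals: it was 51.9% in promoters, 88.7% in introns and 87.3% in intergenic sequence for isolated peaks, against 52.7%, 76.3% and 80.6%.

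Isolated peaks sat in gene-poor, AT-rich surroundings, which follows in part from the rule. Within 1 Mb centred on the summit there was a median of 4 protein-coding genes, against 13 for non-isolated peaks near genes. In 283 cases (66.4%, interval 61.8 to 70.8) a single protein-coding gene had a TSS within 100 kb, against 22.0%. The GC content of the surrounding 100 kb had a median of 39.4%, against 45.5%, and that of the 201 bases at the summit 45.3%, against 49.8%. The TSS itself was usually not next to the peak: the median distance was 19040 bases, with 159 peaks (37.3%) within 10 kb and 109 (25.6%) beyond 50 kb. Every autosome held some, between 10 on chromosome 19 and 36 on chromosome 4, and per megabase of known sequence their number lay between 0.119 on chromosome 8 and 0.237 on chromosome 4.

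The genes that hold intronic isolated peaks were long. Of the 177 intronic peaks 157 lay in a protein-coding gene, and those genes had a median length of 385 kb (interval of the median 325 to 466), against 95.7 kb for non-isolated intronic peaks near genes. Of the 157, 116 (73.9%, interval 66.5 to 80.1) lay in genes over 200 kb, against 25.5%, and 55 (35.0%, interval 28.0 to 42.8) in genes over 500 kb, against 7.43%. Long host genes were not particular to these peaks. For intronic isolated peaks far from genes the median length was 870 kb, with 95.7% over 200 kb and 69.6% over 500 kb. Their distance from any protein-coding TSS itself requires a long gene. Gene length is therefore given beside the gene groups that follow.

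Of the 10 strongest isolated peaks 9 were intronic, and all 10 had a motif. The strongest lay in an intron of Lmo3, which encodes a LIM-only cofactor of transcription, 50.6 kb from its nearest TSS. Its signal of 511 ranked 1296 in the optimal list, with 263 in replicate 2 and 249 in replicate 1, and its neighbours were 163 and 435 kb away. The peak in Lnp1 had a signal of 479, with 233 in replicate 2 and 247 in replicate 1. The only intergenic one stood 96.4 kb upstream of Cacna2d1, which encodes an auxiliary subunit of voltage-gated calcium channels, with a signal of 473 in all, 240 in replicate 2 and 234 in replicate 1. In each of these 3 peaks the replicates differed by little beside the signal itself.

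The other strong peaks lay near Adam4 (signal 424), a membrane metallopeptidase gene, in 5730522E02Rik (424), and in Pappa2 (422), whose product cleaves insulin-like growth factor binding proteins. They were followed by Lrrc4c (421), which encodes a synaptic netrin-G ligand and whose peak had 758 kb without another peak on 1 side. Metabolic genes closed the group: Fah (404), the last enzyme of tyrosine breakdown, Agmo (398), which cleaves ether lipids, and Slc25a21 (385), a mitochondrial carrier. The strong solitary sites thus lay at genes of unlike roles, with nerve cell genes next to liver and lipid enzymes.

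The widest empty surroundings belonged to a peak near Olfr1243, an olfactory receptor gene on chromosome 2, with 1188 kb on 1 side and 926 kb on the other. Its signal was 72.9, with 42.0 in replicate 2 and 30.8 in replicate 1, and it had a motif. A peak near Olfr1066 on the same chromosome came next, with gaps of 739 and 1016 kb and a signal of 208. Peaks near Gm10801, the zinc finger gene Zfp981 and the lipoprotein receptor gene Lrp1b had smaller gaps of 640, 620 and 607 kb. All 5 peaks had a motif, but 2 of them, near Gm10801 and Zfp981, were weak, with signals of 21.2 and 35.1, and were not in the conservative list. Gaps in the assembly lay near few: 8 isolated peaks (1.88%) had at least 1000 unknown bases within 100 kb, against 1.12% of non-isolated peaks near genes.

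Strong isolated peaks without a motif were of mixed kinds. The strongest stood 58.7 kb upstream of Tlr4, the receptor for bacterial lipopolysaccharide, with a signal of 320, 163 in replicate 2 and 161 in replicate 1. Others were near Gm49339 (293) and in an intron of Bmpr1b (262), which encodes a receptor of bone morphogenetic proteins. Both promoters in this group, Lingo2 and Chrna7, belong to nerve cell genes: a leucine-rich repeat membrane protein and a nicotinic acetylcholine receptor subunit. The Lingo2 peak had a signal of 264, 132 in replicate 2 and 131 in replicate 1, and its summit lay 45 bases from the TSS. The Chrna7 peak had 225, 108 in replicate 2 and 117 in replicate 1, 60 bases from the TSS. In each of these promoters the 201 bases at the summit held 25 CG dinucleotides, and the printed stretch upstream of the TSS holds 15 in each.

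Promoter peaks as a group fell into CG-rich and CG-poor ones. Of the 81 promoter peaks 69 were within 1 kb of a protein-coding TSS, and the other 12, at TSSs of other transcripts, all had a motif. Beside these few, promoter peaks among isolated peaks far from genes had a motif in 29 of 38 cases (76.3%, interval 60.8 to 87.0). Of the 69, 44 had 10 or more CG dinucleotides in the 201 bases, and 19 of these 44 had a motif. Among the 25 CG-poor ones 11 had one. Taken over all 81 promoter peaks, a motif was found in 20 of the 45 CG-rich ones (44.4%, interval 30.9 to 58.8) and in 22 of the 36 CG-poor ones (61.1%, interval 44.9 to 75.2), against 39.7% and 64.9% in non-isolated promoter peaks. Both intervals of isolated peaks span the shares of non-isolated ones.

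The signal of the 69 coding promoters ran between 16.8 and 321 with a median of 61.7. The strongest was at Tox, which encodes a nuclear factor of T cell development, with a signal of 321, 161 in replicate 2 and 160 in replicate 1, and it had a motif. The 5 summits closest to a TSS were at Sphkap, P2ry1, Lrrtm4, Ccdc88a and Sem1, between 3 and 11 bases away. Of these Ccdc88a was the strongest, with a signal of 161, close to the upper quartile of isolated peaks, while the rest ran between 22.1 and 70.7, below their median. Lrrtm4, a synaptic adhesion gene, and Ccdc88a, an actin-binding regulator of migration, had a motif, and the other three had none. P2ry1 encodes a purine receptor and had a signal of 41.1, with 26.5 in replicate 2 and 17.3 in replicate 1.

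Over the genome 804 of 20807 protein-coding genes, or 3.86%, had an isolated peak within 100 kb of a TSS. Gene lists of the intestine were counted over their autosomal genes, and for the epithelium the counts could not be told from that share. Of 24 transcription factors of that epithelium, of 29 enterocyte genes for the brush border and nutrient uptake, of 22 genes of enteric neurons and glia and of 16 housekeeping genes, 0 had one, while every one of these genes had some optimal peak within 100 kb. The lists are short, and the upper bounds of these intervals lay between 11.7% and 19.4%, above the 3.86% of all genes. Of 28 secretory lineage genes 1, Atoh1, had one (3.57%), and of 26 stem cell and Wnt genes 1, Smoc2 (3.85%).

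Atoh1 encodes the transcription factor that commits intestinal progenitors to secretory fates, and its isolated peak lay 86.2 kb downstream of the TSS. That peak was weak, with a signal of 32.8, 21.5 in replicate 2 and 11 in replicate 1, had a motif and was missing from the conservative list. Smoc2 encodes a matricellular calcium-binding protein of intestinal stem cells. Its peak, 11.9 kb downstream of the protein-coding TSS at the start of another transcript, had a signal of 63.2, with 40.8 in replicate 2 and 22.7 in replicate 1. Both peaks were lower in replicate 1.

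Of 29 genes of smooth muscle and mesenchyme 3 (10.3%, interval 3.58 to 26.4) had an isolated peak, each with a motif. The interval spans the 3.86% of all protein-coding genes. The peak of Col3a1, a fibrillar collagen gene, lay 2.5 kb from its TSS in an intron, with a signal of 285, 146 in replicate 2 and 139 in replicate 1. Its neighbours stood 568 and 118 kb away. Kit, the receptor tyrosine kinase of interstitial cells of Cajal, had a peak 87.3 kb downstream with a signal of 122. Bmp5, a bone morphogenetic protein gene, had one at 77.7 kb with a signal of 76.5. The Kit and Bmp5 sites both carry CCAGAAGAG and the Col3a1 site does not, as the second set of sequences shows.

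Listed genes of neuronal adhesion, guidance and excitability had isolated peaks more often than protein-coding genes as a whole. The lists were chosen with earlier results of these data known, so their shares describe the listed genes only. Of 55 genes for synaptic adhesion and axon guidance 17 (30.9%, interval 20.3 to 44.0) had an isolated peak within 100 kb, and of 46 genes for voltage-gated and glutamate channels and related receptors 16 (34.8%, interval 22.7 to 49.2). Of 24 type II cadherins and nonclustered protocadherins 5 (20.8%, interval 9.24 to 40.5) had one. These genes are long, with median lengths of 573, 319 and 156 kb, against 17.6 kb over all protein-coding genes. Protein-coding genes over 500 kb had an isolated peak in 30.7% of cases, those of 200 to 500 kb in 12%, those of 50 to 200 kb in 3.03% and those up to 50 kb in 3.33%. Weighting all protein-coding genes to the length classes of each list gave 20.8% for the synaptic and guidance list, 13.0% for the channel list and 11.6% for the cadherins. Length thus moved with much of the excess, and for the synaptic and cadherin lists the length-weighted share lay inside the interval.

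**Figure D4:**
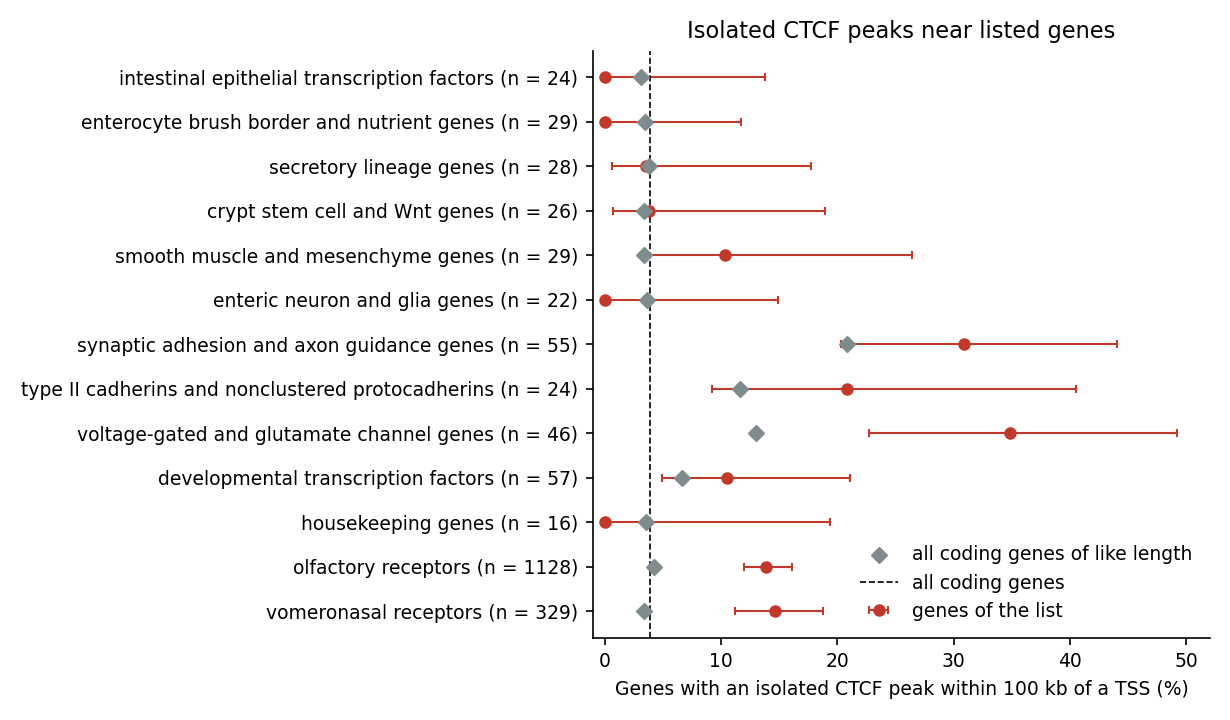
Share of genes (percent) with an isolated CTCF peak within 100 kb of a TSS, for 11 gene lists and the olfactory and vomeronasal receptor families (red circles, Wilson 95% intervals), with all protein-coding genes weighted to the same length classes (grey diamonds) and all protein-coding genes (dashed line at 3.86%). The channel list at 34.8% and both receptor families at 13.9% and 14.6% lie above their length-weighted shares of 13.0%, 4.27% and 3.38%. Clustered receptor genes share peaks, 22 for the 157 olfactory and 15 for the 48 vomeronasal genes, so their intervals, which count genes, understate the spread. The lists were chosen with earlier results of these data known, and the families after values were seen.

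The synaptic and guidance genes shared 24 isolated peaks, 22 of them with a motif, with signals between 17.9 and 287 and a median of 128. Most were intronic (18), and in 22 cases the nearby gene was the only protein-coding one within 100 kb. Several genes had more than one, among them Ntm, a cell adhesion gene, which had 3, with signals of 239, 51.8 and 28.9. The strongest of the group were in introns of Cntnap5c (287), Tenm2 (260) and Cntnap4 (257), all genes of neuronal cell adhesion. Replicate 2 had 149, 132 and 128 for these and replicate 1 had 135, 126 and 129, so none stood on a single replicate. The guidance receptors Robo1 and Robo2 differed widely, with signals of 144 and 17.9.

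The channel genes had 18 isolated peaks, 13 with a motif, with signals between 18.5 and 473 and a median of 103. Cacna2d3, a calcium channel subunit gene like Cacna2d1, had 2 intronic peaks with signals of 302 and 107, and only the stronger had a motif. The peak 1.49 kb upstream of Kcnd2, which encodes a voltage-gated potassium channel, had a signal of 213, 112 in replicate 2 and 104 in replicate 1. Among the cadherins all 7 peaks had a motif. The gene Pcdh15, for a protocadherin of sensory hair cells, had 2 intronic peaks with signals of 196 and 121, and Cdh9 had 1 with 70.0. As the tissue was whole intestine with its nerve plexuses, the cells behind these peaks are unknown.

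Of 57 developmental transcription factors 6 (10.5%, interval 4.91 to 21.1) had an isolated peak, against 6.65% of all protein-coding genes of like length. The strongest was in an intron of Zfhx3, a homeobox gene, with a signal of 204, 108 in replicate 2 and 95.5 in replicate 1. Isl1, a LIM homeobox gene, had one 2.64 kb upstream with a signal of 89.6 and no other summit of the pooled list within 100 kb. Sox6, an HMG-box gene, had 2: an intronic one with a motif at 67.0 and one at its promoter without a motif at 64.0. The peaks of Foxp1, Sox5 and Zfpm2 were weak, with signals of 32.4, 33.5 and 19.7.

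Gene families picked by symbol after values were seen added tandem clusters in which many genes share a peak. Of 1128 olfactory receptor genes 157 (13.9%) had an isolated peak, but these were only 22 peaks, and of 329 vomeronasal receptor genes 48 (14.6%) had one, from 15 peaks. Any optimal peak lay within 100 kb of 52.6% and 38.6% of these genes, against 92.7% of all protein-coding genes. Peaks with chemosensory receptor genes alone within 100 kb numbered 22, and 21 of them (95.5%) had a motif, with a median signal of 60.1, against 80.4% and 75.6 in the other isolated peaks. No interval was computed for these few peaks, and they were not matched to the others by position, so nothing is read from the difference. Of the 7 Reg genes, a cluster of secreted C-type lectins that includes antibacterial proteins of the gut, 5 lay within 100 kb of a single isolated peak. That peak (chr6:78332258-78332511), nearest to Reg3b, had a signal of 262, 132 in replicate 2 and 132 in replicate 1, a motif, and gaps of 353 and 131 kb. Its motif scored 2.46 above threshold, below the lower quartile of 3.48 in isolated peaks with a motif.

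Motif strands were compared between neighbouring peaks with a motif. Of 633 such pairs that include an isolated peak, 198 (31.3%, interval 27.8 to 35.0) were convergent, meaning that their motifs face each other, beside 31.4% of all pairs more than 100 kb apart. A share of 19.9% was divergent and 48.8% tandem, against 16.3% and 52.2% in other pairs over 100 kb apart. Pairs up to 100 kb apart were convergent in 22.8% of cases. The interval for isolated peaks thus spans the share of all pairs at such distances and lies above that of closer pairs.

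By distance, pairs with an isolated peak were convergent in 25% (interval 20.5 to 30.1) at 100 to 200 kb, against 30.8% of other pairs. At 200 to 500 kb they were convergent in 37.4% (interval 31.3 to 43.9), against 31.9%. The shares beyond 500 kb rest on few pairs, with 27 of 73 (37.0%) up to 1000 kb, against 33.2%. Relative to the nearest protein-coding TSS the motif pointed at it in 189 of 346 isolated peaks (54.6%, interval 49.4 to 59.8), against 48.6% of non-isolated ones. It lay on the strand of that gene in 173 of 346, against 51.6% of non-isolated ones (interval of isolated peaks 44.8 to 55.2).

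**Figure D5:**
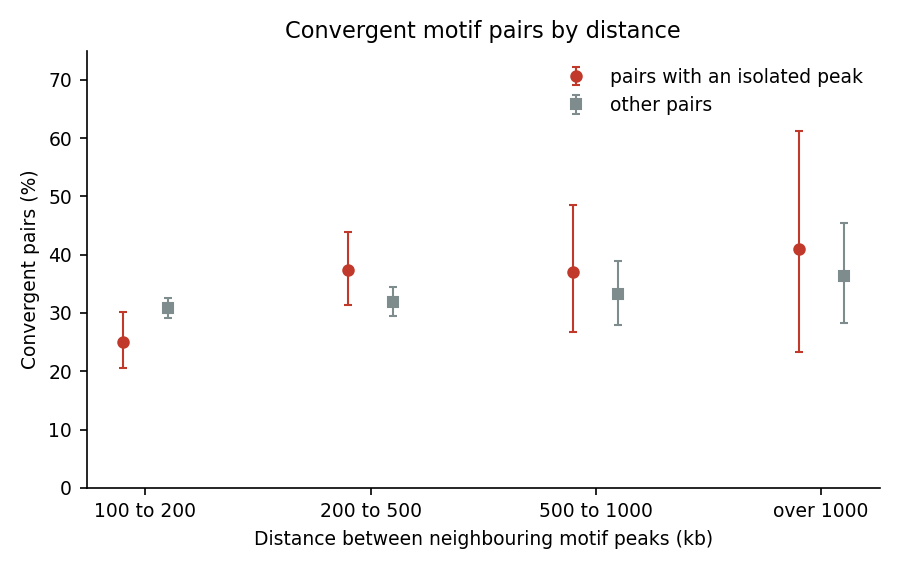
Share of neighbouring motif pairs that are convergent (percent) by the distance between the 2 summits, for pairs with an isolated peak (red circles) and other pairs (grey squares), with Wilson 95% intervals. At 100 to 200 kb the shares were 25% and 30.8%, and at 200 to 500 kb 37.4% and 31.9%.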

How the data were processed

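The authors deposited peak lists on mm10 for each replicate, for pooled reads and for 2 IDR-filtered lists. Signal is the enrichment of a peak as the authors deposited it, and the summit is the deposited offset (another unit, in bases) added to the peak start. The aligner, the peak caller, their versions and the IDR threshold were not given in the sources used here, nor was the role of a control, which did not enter. The lists hold no read counts, so precision beyond the counting of peaks is unknown.

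Members were selected as stated in the report with GENCODE M21. The members and gene lists were chosen with earlier results of these data known. The motif matrix of 19 bases was trained in 6 rounds (pseudocount 1) on the 5000 strongest even-chromosome peaks and scored on odd chromosomes, and the reverse. Classes were assigned in the order promoter, 5′ untranslated region, coding, 3′ untranslated region, other exon, intron, intergenic. No test was made: there is 1 group, and isolated peaks are described beside other peaks with Wilson 95% intervals. A share at like signal weights other peaks to the deciles of isolated ones and does not match signal within a decile.

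Peaks named were the 10 strongest, the 5 strongest without a motif, the 5 nearest to a TSS, the 5 with the widest smaller gap, those at the limits, and up to 3 a gene list. Others, and the family, length, CG, TSS-distance and 9-base comparisons, were chosen after values were seen. Alternatives were other lists, each replicate alone, and other distances, thresholds and windows. Some peaks that this rule names are not reported here. Scripts were tested on simulated data. Python 3.11.15, numpy 2.4.6, scipy 1.17.1, pandas 2.3.3, numba 0.67.0 and matplotlib 3.10.9 were used.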

Additional observations from a re-analysis of the deposited data

How the results depend on the processing

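Of 72 values recomputed under alternatives, 45 stayed within the interval of the reported value (or within 1.5 times, for counts). With optimal peaks above the median signal, isolated among themselves, there were 862 isolated peaks, a motif share of 85.4%, a difference at like signal of 1.47 points and a median signal of 182. Isolation at 50 kb gave 1884 peaks, a motif share of 76.8% and a difference of 5.70. Isolation at 200 kb gave 103 peaks, a difference of 14.8, a median signal of 61.7 and a promoter share of 15.5%. A TSS within 50 kb gave a promoter share of 24.0%. A TSS within 10 kb gave 159 peaks, a motif share of 69.2%, a promoter share of 45.9% and a difference of -1.93, the only reversed value. That difference was taken against other peaks at any TSS distance, and its cause was not tested. The motif threshold of 1% gave a motif share of 43.4%, a difference of 5.67 and a convergent share of 27.4%, and a window of 50 bases a motif share of 75.8%. Promoters of 200 bases and 5 kb gave promoter shares of 12.7% and 38.7%.

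With each replicate left out in turn, the number of isolated peaks was 421 and 434. The motif share ranged from 76.5% to 80.0%, the difference from 6.80 to 8.84 points, the median signal from 33.1 to 37.1 on the replicates' own scale, the convergent share from 31.7% to 32.0%, the promoter share from 19% to 20.0% and the share found in both replicate lists from 97.7% to 98.8%. Leaving out members near unknown bases, an alternative added after seeing the data, changed no value beyond its interval. No paired analysis was possible because there is 1 group. Read depth, mappability and the cell type bound are unknown, and the lists cannot show whether a weak neighbour was missed.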
